A study of Canis lupus familiaris with 77 samples.

Results

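Small RNA sequencing (miR-seq) of canine jejunum was compared with that of ileum, in all 5 libraries that carry each of these tissue labels. They are 10 of the 76 libraries with values in a dog miRNA tissue atlas, and every miRNA in the table was considered. All 10 samples came from untreated male Beagle dogs; the study's methods describe Marshall Beagles of 10 months that were flushed with phosphate-buffered saline before the organs were taken, which lowers the blood in each tissue. The methods list 5 dogs for the 16 tissues, but the labels number neither dogs nor pieces of intestine, so jejunum and ileum samples were not paired, and p-values measure only the spread between these samples. Libraries of duodenum (5) and colon (4) with the same breed, sex and treatment, the segments on either side, were read beside them. Samples are numbered within each tissue in the order of deposit, and the numbers were not used to pair samples.

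Mature miRNAs are short RNAs that guide Argonaute proteins to partly complementary messenger RNAs and lower their translation or stability. The jejunum and the ileum are successive stretches of the small intestine. The jejunum absorbs most nutrients across tall villi, whereas the ileum takes up bile acids and vitamin B12 and holds the larger aggregates of lymphoid follicles. Position along the gut is laid down in part by the HOX genes, whose clusters also contain miRNA genes.

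The jejunum libraries held 475283 to 3318297 reads on miRNAs and the ileum libraries 526533 to 6117500, and the difference in means was smaller than the spread (two-sided exact permutation p = 0.825). After thinning to the smallest library, 351 ± 13.4 miRNAs were detected in jejunum and 357 ± 16.2 in ileum (SD, n = 5 each; two-sided exact permutation p = 0.556). The floor of detection, taken as 3 reads, was worth 0.490 to 6.31 RPM (reads per 1000000 reads on miRNAs), so levels of a few RPM were poorly resolved in the shallower libraries. Intervals and floors cover counting error only. miR-192, made by intestinal epithelial cells, was the most abundant miRNA in all 5 jejunum libraries (22.5% to 39.9% of reads) and in ileum 2 and 3. Its median was 302243 RPM in jejunum, 154549 RPM in ileum and 155908 RPM in colon. It thus did not tell ileum from colon. Its ranges in jejunum and ileum overlapped, so it is no check of either label. In ileum 1, 4 and 5 the most abundant was miR-143, a miRNA of smooth muscle and fibroblasts, which took 43.1% of the reads of ileum 4. Ileum 4 and 5 also had the least miR-192, miR-194 and miR-215, so counts for several lists are also given without them.

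Of 263 miRNAs with enough reads to test, 49 differed between jejunum and ileum at an adjusted p under 0.05 (18.6%; edgeR's quasi-likelihood test with Benjamini-Hochberg adjustment), 21 higher in ileum (7.98%) and 28 lower (10.6%). These 49 are referred to as called. Fold changes are given on the log2 scale, as ileum minus jejunum, with their standard error. The median over all 263 was 0.04. When libraries were scaled by their total reads instead of by TMM factors, this median moved to 0.22, 42 miRNAs were called and the split became 22 higher to 20 lower. No called miRNA changed direction, whereas miR-10a, miR-28-5p, miR-29a and miR-429, which were not called and lay near 0, turned from negative to positive (0.04 to 0.10). In 23 of the 263 (8.75%) the RPM values of the 2 segments did not overlap, 14 with ileum above (5.32%) and 9 with ileum below (3.42%), and 21 of these 23 were called. Without ileum 1 the number called was 28, and without jejunum 1 it was 31. Without ileum 4 and 5 it was 44, of which 37 were among the 49. In these bulk samples, fewer cells of a type and less RNA per cell cannot be told apart.

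**Figure D1:**
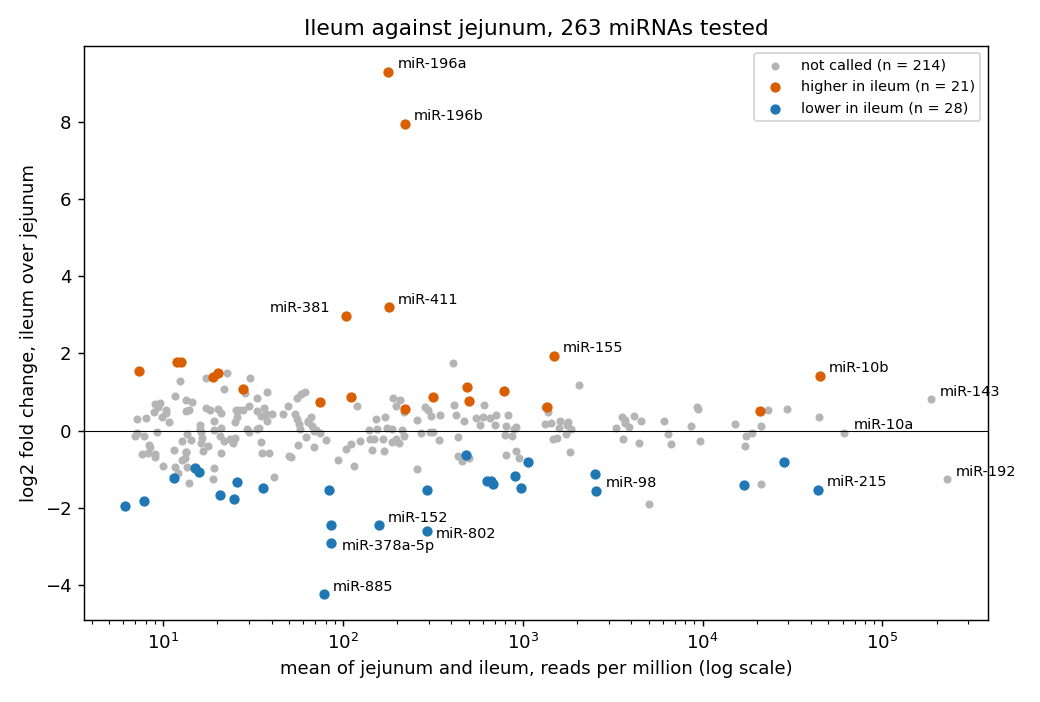
Each point is a miRNA, placed by its mean level over jejunum and ileum (RPM, log axis) and its log2 fold change (ileum over jejunum, linear axis); orange points were called higher in ileum (21), blue points lower (28) and grey points were not called (214). miR-196a and miR-196b stand at log2 fold changes of 9.29 and 7.94 and miR-885 at -4.23, while the most abundant miRNAs, miR-192 and miR-143, were not called.

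The sharpest difference between the segments lay in miRNAs encoded among the HOX genes. miR-196a has 2 gene copies, which lie between HOXB9 and HOXB13 and between HOXC10 and HOXC4 in the RefSeq gene table, and miR-196b lies between HOXA9 and HOXA10; both are known to repress HOX transcripts. miR-196a had 4 reads in all jejunum libraries together, with no more than 1 in any library. In ileum 1 to 5 it stood at 247, 460, 378, 372 and 327 RPM. The pooled rate in ileum was 671 times that in jejunum (95% exact interval 262 to 2462, from counting error only), and the adjusted p was 1.54e-08. miR-196b had 13 reads in jejunum, at most 5 in a library, against 344, 639, 507, 314 and 393 RPM in ileum (pooled ratio 265, interval 155 to 499; adjusted p = 2.65e-08). For both miRNAs the segments did not overlap in any library. The opposite arms of both hairpins, miR-196a-3p and miR-196b-3p, had 0 reads in jejunum and 16 each in ileum, at least 4.30-fold higher when set against a floor of 3 reads over the jejunum group, while the 95% exact interval of the ratio began at 3.11; they were too low to test.

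miR-10b, which lies between HOXD8 and HOXD3, shared the direction at a far higher level. It read 29029, 16185, 14633, 30444 and 25307 RPM in jejunum 1 to 5 and 77278, 47115, 40915, 87117 and 80388 RPM in ileum 1 to 5. Every ileum library was above every jejunum library (log2 fold change 1.43 ± 0.31, adjusted p = 0.00895). The call was lost when the spread was shared over the 4 intestinal tissues or over all tissues. Its relative miR-10a, from the HOXB cluster, did not pass the test, with 45811 to 70213 RPM in jejunum and 56322 to 72311 RPM in ileum (log2 fold change -0.05 ± 0.22, adjusted p = 0.884, and 0.09 with total reads as the library size). Within a library, the ratio of miR-10b to miR-10a reads was 0.310 to 0.445 in jejunum and 0.675 to 1.34 in ileum, a comparison that involves no scaling. miR-615, the remaining miRNA of the list, was at the floor in both segments, with 1 read in each. Of the 5 HOX cluster members tested, 3 were higher in ileum and 0 lower (median log2 fold change 1.43), beside 7.98% and 10.6% over all miRNAs. miR-196a and miR-196b had enough reads to test only through ileum, so this count is no support beyond the single miRNAs. Without ileum 4 and 5, 6 were tested, again with 3 higher and 0 lower, beside 19 and 25 of all 281 tested.

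**Figure D2:**
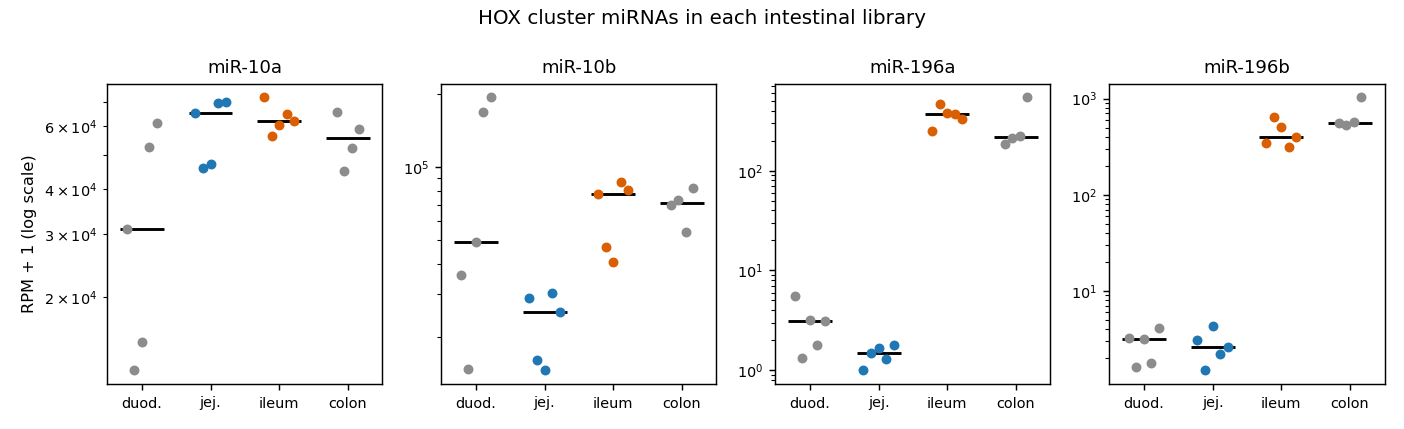
Levels of 4 HOX cluster miRNAs in each library of duodenum, jejunum, ileum and colon (RPM plus 1, log axis with its own range in each panel; each point is a library, bars are medians). miR-196a and miR-196b were near the floor in duodenum and jejunum and between 186 and 1030 RPM in ileum and colon; miR-10b was higher in ileum than in jejunum, and miR-10a overlapped.

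The HOX miRNAs did not follow one pattern along the gut. miR-196a had medians of 2.10 RPM in duodenum, 0.496 in jejunum, 372 in ileum and 217 in colon, and miR-196b medians of 2.16, 1.61, 393 and 558 RPM. Both thus took their step between jejunum and ileum. miR-10b ranged from 14735 to 193849 RPM over the duodenum libraries, a wider range than in any other segment, and its duodenum median of 49081 RPM lay above that of jejunum.

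Among the miRNAs lower in ileum, miR-885 differed most. It lies inside ATP2B2, a plasma membrane calcium pump gene, and is used as a liver marker. Its level was 143, 98.2, 98.8, 248 and 157 RPM in jejunum 1 to 5, and 11.3, 10.7, 9.33, 4.12 and 3.80 RPM in ileum 1 to 5 (log2 fold change -4.23 ± 0.35, adjusted p = 4.49e-06). The lowest jejunum library stood far above the highest ileum library. Over the 16 tissues its median was highest in brain (875 RPM) and liver (207 RPM), followed by jejunum. miR-885 was the 1 tested member of the pancreas and liver list. The defining markers of those organs were near the floor: liver-specific miR-122 reached at most 3.27 RPM in jejunum and 2.33 RPM in ileum against a median of 22008 RPM in liver, and neuronal miR-124 at most 2.41 and 4.76 RPM.

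miR-802 was at 558, 544, 507, 466 and 384 RPM in jejunum and at 104, 123, 152, 39.1 and 47.5 RPM in ileum. The groups were far apart (log2 fold change -2.60 ± 0.36, adjusted p = 7.32e-04), but the call was lost when the spread was shared over the 4 intestinal tissues. Jejunum had the highest median of miR-802 after pancreas (2512 RPM). The acinar cell miRNAs miR-216a, miR-216b and miR-217 had medians of 4143, 5507 and 3543 RPM in pancreas. In jejunum their medians were 4.21, 10.5 and 3.47 RPM, and in ileum 1.37, 1.47 and 0 RPM. Summed over libraries, miR-216a, miR-216b and miR-217 had 40, 71 and 35 reads in jejunum and 15, 14 and 1 in ileum. Whether pancreas tissue plays a part in the miR-802 difference was not tested.

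The miR-378 hairpin lies inside PPARGC1B, a coactivator gene of mitochondrial metabolism, and both of its arms were lower in ileum. miR-378a-5p had 128, 82.8, 59.5, 275 and 207 RPM in jejunum and between 10.7 and 44.6 RPM in ileum (median 13.3), with no overlap (log2 fold change -2.90 ± 0.56, adjusted p = 0.00518). The abundant arm, listed as miR-378, had 13457 to 38579 RPM in jejunum and 7927 to 14710 RPM in ileum (log2 fold change -1.41 ± 0.34, adjusted p = 0.0129; 0.0558 without ileum 1). The abundant arm exceeded the other by 140 to 256 times in jejunum and by 330 to 762 times in ileum, so the ratio of the arms also did not overlap between the segments.

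The miR-148 and miR-152 family, which shares a seed and is known to target the DNA methyltransferase DNMT1, was split. miR-152, inside COPZ2, stood at 341, 268, 85.7, 369 and 255 RPM in jejunum and 58.8, 70.8, 42.0, 43.2 and 49.4 RPM in ileum (log2 fold change -2.45 ± 0.37, adjusted p = 0.00127), with jejunum 3 the closest to the ileum range. miR-148b was lower in ileum too, with 559 to 1302 RPM in jejunum and 226 to 665 RPM in ileum (log2 fold change -1.31 ± 0.26, adjusted p = 0.00555). The opposite arms miR-152-5p (-0.55, adjusted p = 0.190) and miR-148b-5p (0.43, adjusted p = 0.288) were not called, the latter with the other sign. miR-148a had medians of 14709 RPM in jejunum and 15634 RPM in ileum and was not called.

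The let-7 family, whose members restrain proliferation, was also uneven. Of its 10 tested members, 2 were lower and 1 higher in ileum, beside 10.6% and 7.98% over all miRNAs. The median log2 fold change was 0.13. miR-98 read 4376, 2588, 2018, 5142 and 4358 RPM in jejunum and 1242, 1821, 1230, 803 and 2040 RPM in ileum, so that ileum 5 overlapped jejunum 3 (log2 fold change -1.57 ± 0.26, adjusted p = 0.00231). let-7b was lower in ileum by 1.11 ± 0.26 on the log2 scale (adjusted p = 0.0126), and let-7f was higher by 0.51 ± 0.16 (adjusted p = 0.0403; 0.0501 with total reads as the library size). The let-7f call was kept in 2 of the 10 fits that left out a library. Mature let-7 sequences differ by few bases, so reads may be split between them.

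**Figure D3:**
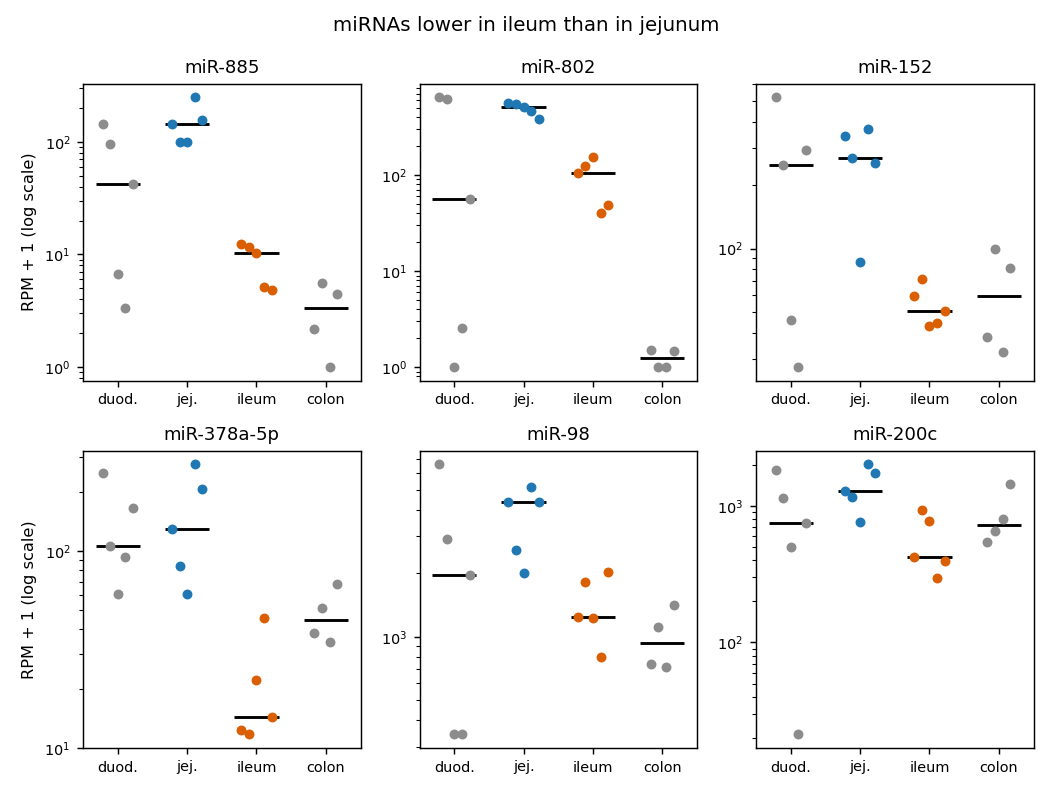
Levels of 6 miRNAs called lower in ileum than in jejunum, in each library of the 4 intestinal segments (RPM plus 1, log axis with its own range in each panel; points are libraries, bars are medians). miR-885, miR-802, miR-152 and miR-378a-5p had no overlap between jejunum (blue) and ileum (orange); duodenum spread widely, with 2 libraries near the floor for miR-802.

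Epithelial miRNAs had lower values in ileum, but few passed the test. The intestinal epithelium list (miR-192 and its opposite arm, miR-194 and miR-215) had 4 tested members, all with negative log2 fold changes. Their median was -1.44 and 2 were called, beside 10.6% called lower over all miRNAs. The median was -0.90, with 1 called lower, without ileum 4 and 5, beside 25 of all 281 tested. miR-215 read 43168, 89467, 79967, 44759 and 53125 RPM in jejunum and 21317, 44871, 43174, 9365 and 9800 RPM in ileum (log2 fold change -1.53 ± 0.49, adjusted p = 0.0497). The ranges overlapped, and the call was kept in 1 of the 10 fits that left out a library; without ileum 4 and 5 the log2 fold change was -0.99 with an adjusted p of 0.115. miR-192-3p, the minor arm, was lower by 1.48 ± 0.35 on the log2 scale (adjusted p = 0.0126), with 40.0 to 57.0 RPM in jejunum and 7.55 to 33.8 RPM in ileum. miR-192 itself, at 224693 to 398717 RPM in jejunum and 55940 to 253646 RPM in ileum, missed the threshold (log2 fold change -1.26 ± 0.46, adjusted p = 0.0736), as did miR-194 (-1.39 ± 0.49, adjusted p = 0.0663). The summed level of the list was 292579 to 527363 RPM in jejunum, and 187651, 323533, 291048, 70664 and 70603 RPM in ileum 1 to 5.

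Pan-epithelial miRNAs of the miR-200 family, which keep epithelial identity by repressing ZEB1 and ZEB2, differed for 1 member. Of 8 tested members, 0 were higher and 1 was lower (median log2 fold change -0.55), a share near the 10.6% called lower over all miRNAs. Of 9 tested without ileum 4 and 5, 2 were lower (median -0.25), beside 25 of all 281 tested. miR-200c had 1286, 1168, 760, 2019 and 1731 RPM in jejunum and 425, 927, 770, 296 and 395 RPM in ileum (log2 fold change -1.48 ± 0.34, adjusted p = 0.0117). miR-200b-3p, whose seed matches that of miR-200c, was at 978 to 1831 RPM in jejunum and 630 to 2327 RPM in ileum (log2 fold change -0.21 ± 0.33, adjusted p = 0.655, but 0.24 without ileum 4 and 5). miR-141, the cluster mate of miR-200c, had a log2 fold change of -1.89 ± 0.72 (adjusted p = 0.0856), with jejunum 2 at 21926 RPM and the other jejunum libraries at 3015 to 5608 RPM. miR-200a-3p (-0.72 ± 0.34), miR-429 (-0.17 ± 0.34, but 0.30 without ileum 4 and 5) and miR-141-5p (-0.93 ± 0.32) were not called.

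The hypoxia and inflammation list (miR-21, miR-31, miR-147, miR-210, miR-221 and miR-222) had 9 tested members, of which miR-222 was higher in ileum and both arms of miR-31 were lower (median log2 fold change 0.34). Over all miRNAs, 7.98% were called higher and 10.6% lower. miR-31, which promotes growth of intestinal stem and progenitor cells, read 788 to 994 RPM in jejunum and 299, 699, 555, 186 and 253 RPM in ileum without overlap (log2 fold change -1.30 ± 0.32, adjusted p = 0.0150). Its opposite arm miR-31-3p was lower as well (log2 fold change -1.82 ± 0.46, adjusted p = 0.0171), and both arms lost the call without ileum 1 (adjusted p = 0.0611 and 0.0689). The list had 2 members higher and 2 lower (median 0.54) without ileum 4 and 5, beside 19 and 25 of all 281 tested. miR-203, a miRNA of differentiating stratified epithelium, had 787 to 1184 RPM in jejunum and 138 to 695 RPM in ileum (log2 fold change -1.38 ± 0.40, adjusted p = 0.0323; -0.88 with adjusted p = 0.0846 without ileum 4 and 5), while miR-205, the defining marker of that tissue, reached at most 1.61 RPM. The miR-203 call was kept in 4 of the 10 fits that left out a library. Whether epithelial content plays a part in these differences was not tested.

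Smooth muscle miRNAs had the opposite tendency without a call. All 8 tested members of the list missed the threshold (median log2 fold change 0.48), which 18.6% of all tested miRNAs passed. miR-143 was at 90656 to 164349 RPM in jejunum and 135640 to 430677 RPM in ileum (log2 fold change 0.82 ± 0.39, adjusted p = 0.168), miR-145 had a log2 fold change of 0.27 ± 0.69, miR-145-3p of 0.53 ± 0.48 and miR-133a of 0.41 ± 0.58. Without ileum 4 alone, miR-145 and miR-133a turned negative (-0.59 and -0.60). The summed list ranged from 92172 to 172052 RPM in jejunum and from 137739 to 442471 RPM in ileum, with ileum 4 highest. Without ileum 4 and 5 the list median was -0.16.

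Several miRNAs of lymphocytes and other leukocytes were higher in ileum. Of 15 tested members of the list, 5 were higher and 0 lower (median log2 fold change 0.52), beside 7.98% and 10.6% over all miRNAs. Without ileum 4 and 5, 4 were higher and 0 lower (median 0.58), beside 19 and 25 of all 281 tested. miR-155, processed from the BIC transcript and induced in activated B and T cells, read 669, 254, 1063, 399 and 350 RPM in jejunum and 2291, 1295, 2264, 1441 and 4873 RPM in ileum. Every ileum library was above every jejunum library (log2 fold change 1.94 ± 0.37, adjusted p = 0.00511), and its median was the highest of the 16 tissues in ileum. miR-150, a miRNA of mature lymphocytes that targets MYB, had 478, 228, 712, 522 and 455 RPM in jejunum and 1067, 761, 1269, 822 and 1561 RPM in ileum, again without overlap (log2 fold change 1.03 ± 0.22, adjusted p = 0.00819). The miR-150 call was lost when the spread was shared over the 4 intestinal tissues or over all tissues.

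The remaining leukocyte calls were smaller or less stable. miR-146b, part of the feedback on NF-kB signalling, had 150 to 504 RPM in jejunum and 357 to 941 RPM in ileum (log2 fold change 1.13 ± 0.32, adjusted p = 0.0317). miR-181b (0.61 ± 0.18, adjusted p = 0.0365) and miR-181a-3p (0.73 ± 0.19, adjusted p = 0.0210), of a family known from lymphocyte development, were called, and the abundant arm miR-181a missed the threshold at 0.52 ± 0.17 (adjusted p = 0.0522). The calls of miR-146b and miR-181b were kept in 4 and 2 of the 10 fits that left out a library. Genes of miR-181a and miR-181b lie in the same clusters, so the calls of miR-181b and miR-181a-3p are not separate. The pan-leukocyte miR-142 was not called for either arm (0.61 ± 0.40 for the 5' arm and 0.60 ± 0.34 for miR-142-3p; adjusted p = 0.294 and 0.225), and neither was miR-146a (0.39 ± 0.22, adjusted p = 0.225). miR-342, miR-28, miR-28-5p and miR-29c lay between -0.32 and 0.35. The summed list was 26014 to 50395 RPM in jejunum and 43169 to 71388 RPM in ileum.

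Myeloid miR-223 was low, at 4.22 to 20.9 RPM in jejunum and 6.18 to 39.9 RPM in ileum, and was not called (log2 fold change 1.36 ± 0.55, adjusted p = 0.0963). Without ileum 4 and 5 it was called (1.86, adjusted p = 0.0318). Of 4 tested erythroid members, 0 were called (median log2 fold change 0.31, and 0.82 with 0 called without ileum 4 and 5). Over all miRNAs, 18.6% were called, and 44 of 281 without ileum 4 and 5. Of the 2 endothelial arms, miR-126-3p was lower in ileum by 0.82 ± 0.17 on the log2 scale (adjusted p = 0.00656, but 0.116 with total reads as the library size) and miR-126 was not called (-0.34, adjusted p = 0.205). Among 7 fibroblast members, miR-152 and miR-199a-5p were lower and 0 were higher (median log2 fold change -0.26), beside 10.6% and 7.98% over all miRNAs. The call of miR-199a-5p was kept in 1 of the 10 fits that left out a library and was lost with total reads as the library size (adjusted p = 0.206). The list had 1 member called lower (median -0.54) without ileum 4 and 5, beside 25 of all 281 tested.

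Members of the imprinted DLK1-DIO3 cluster, a large miRNA cluster expressed from the maternal chromosome and known from brain and mesenchymal tissue, had values in the same direction. The list has 61 members in the table, of which 45 were detected and 7 passed the filter on low counts. All 7 had positive log2 fold changes (median 1.75) and 4 were called. Over all 263 tested miRNAs, 141 were positive and 7.98% were called higher. A member low in jejunum could pass the filter through its ileum reads, so the shared sign carries no weight for the list as a whole. miR-411 read 27.4, 9.42, 34.7, 40.7 and 53.8 RPM in jejunum and 297, 61.3, 215, 535 and 520 RPM in ileum (log2 fold change 3.20 ± 0.59, adjusted p = 0.00425). miR-381 read 7.94 to 32.9 RPM (median 23.6) in jejunum and 157, 30.3, 115, 355 and 268 RPM in ileum (log2 fold change 2.98 ± 0.61, adjusted p = 0.00656). In both, ileum 4 and 5 were highest and ileum 2 was nearest to jejunum. Both lost their calls when the spread was shared over the 4 intestinal tissues.

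miR-136-3p (log2 fold change 1.78 ± 0.51, adjusted p = 0.0318) and miR-889 (2.10 to 19.3 RPM in jejunum and 11.9 to 55.1 RPM in ileum, adjusted p = 0.0467) were called at lower levels, and miR-127, miR-380 and miR-410 were not (1.75, 1.30 and 1.37). The calls of miR-136-3p and miR-889 were kept in 4 and 3 of the 10 fits that left out a library. The summed level of the list was 269, 120, 219, 322 and 496 RPM in jejunum and 1002, 299, 778, 2410 and 2053 RPM in ileum. The 2 ileum libraries highest in this list were the 2 lowest in the intestinal epithelium list. Without them, miR-411 and miR-381 kept their calls (adjusted p = 0.0131 and 0.0199), miR-136-3p and miR-889 did not (0.0831 and 0.145), and the list median was 1.03. In the flanking segments the same sum was 118 to 7484 RPM in duodenum, where the libraries above the duodenum median or at it (3506 RPM) were the 3 with the least intestinal epithelium miRNAs, and 2174 to 3294 RPM in colon. The part of cell composition in this difference was not tested.

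**Figure D4:**
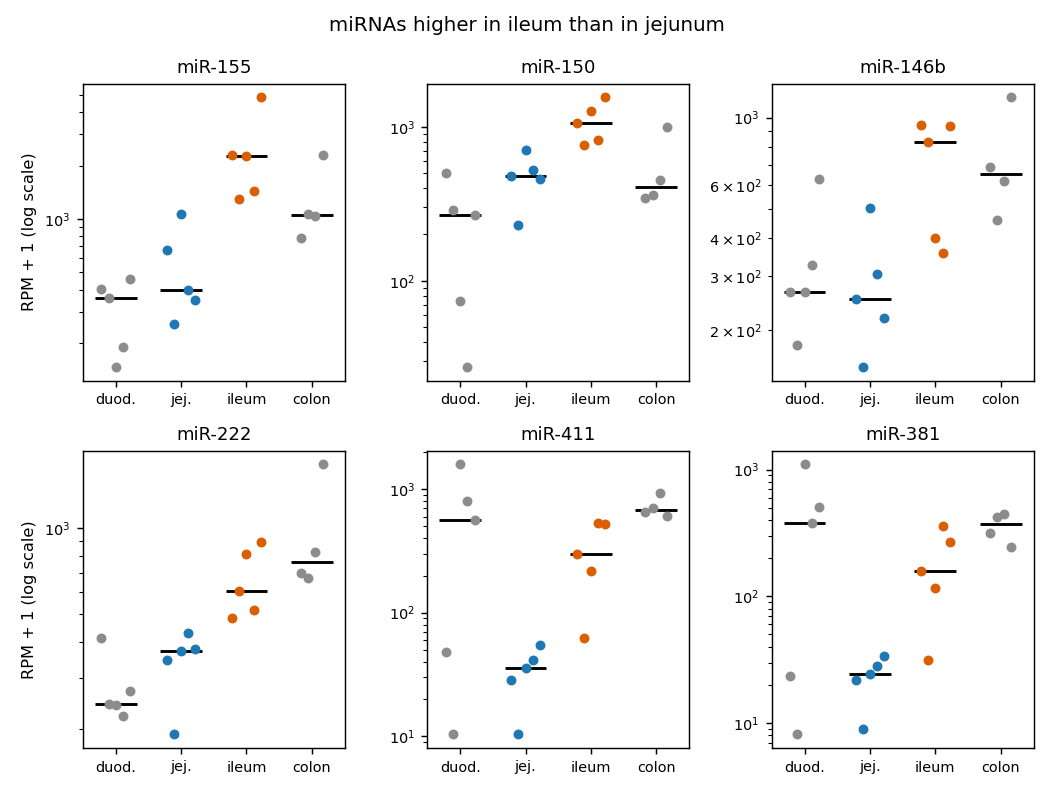
Levels of 6 miRNAs called higher in ileum than in jejunum, in each library of the 4 intestinal segments (RPM plus 1, log axis with its own range in each panel; points are libraries, bars are medians). miR-155, miR-150 and miR-222 had no overlap between jejunum (blue) and ileum (orange); miR-411 and miR-381 were higher in 3 duodenum libraries than in any ileum library.

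Among miRNAs that are transcribed together, the segments did not always differ alike. In the miR-17 cluster, which promotes proliferation, miR-18a was lower in ileum, with 633, 385, 188, 461 and 408 RPM in jejunum and 168, 193, 132, 92.0 and 253 RPM in ileum (log2 fold change -1.53 ± 0.30, adjusted p = 0.00571). Its cluster mates miR-17, miR-19a, miR-19b, miR-20a and miR-92a were not called (log2 fold changes -0.79 to 0.53). The ratio of miR-18a to miR-20a reads within a library was 1.19 to 2.75 in jejunum and 0.740 to 1.03 in ileum. In the X-linked paralogous cluster, miR-106a (the entry named for human miR-106a-5p, 1.40 ± 0.33, adjusted p = 0.0126) and miR-363 (0.86 ± 0.26, adjusted p = 0.0405) were higher in ileum, and miR-20b was not called (1.07, adjusted p = 0.0642). The miR-363 call was kept in 3 of the 10 fits that left out a library. Over the whole list of proliferation clusters, 2 of 16 tested members were higher and 1 was lower (median log2 fold change 0.20), 3 in all, a share near the 18.6% called over all miRNAs.

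miR-24, encoded in both miR-23 and miR-27 clusters, was lower in ileum, with 779 to 1535 RPM in jejunum and 506 to 712 RPM in ileum without overlap (log2 fold change -1.17 ± 0.21, adjusted p = 0.00337). Its opposite arm miR-24-2-5p was not called and had the other sign (0.46, adjusted p = 0.233). miR-23a, miR-23b, miR-27a and miR-27b were not called (-0.54 to 0.19). miR-222 was higher in ileum, at 190 to 430 RPM in jejunum and 486 to 895 RPM in ileum (log2 fold change 0.78 ± 0.18, adjusted p = 0.0123), whereas its neighbour miR-221 was not called (0.09, adjusted p = 0.767). miR-542 and miR-450a, neighbours on the X chromosome, were both lower (-1.67 ± 0.45 and -1.33 ± 0.40; adjusted p = 0.0260 and 0.0365), but these calls were kept in 5 and 2 of the 10 fits that left out a library and were lost with total reads as the library size (adjusted p = 0.0507 and 0.0720). Both products of miR-128, a miRNA enriched in brain, were higher: miR-128 by 0.56 ± 0.18 and miR-128-1-5p, at no more than 13.3 RPM, by 1.56 ± 0.38 (adjusted p = 0.0434 and 0.0150). The call of miR-128 was kept in 2 of the 10 fits that left out a library and in 1 of 8 other settings. miR-708-3p was at 2.48 to 6.63 RPM in jejunum and at 11.3 to 30.4 RPM in ileum (1.79 ± 0.30, adjusted p = 0.00231), while miR-708 was not called (0.52, adjusted p = 0.363).

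The rest of the largest differences toward lower levels in ileum were in miRNAs at low level or with wide spread. miR-204, known from kidney and eye, had 41.2 to 165 RPM in jejunum and 30.3 to 57.0 RPM in ileum (log2 fold change -1.54 ± 0.34, adjusted p = 0.00895). miR-8859a (-1.77 ± 0.32, adjusted p = 0.00399) and miR-8908a-3p (-1.94 ± 0.41, adjusted p = 0.00734) are dog miRNA entries at no more than 51.4 and 13.6 RPM in any library. miR-4532 ranged from 25.7 to 292 RPM within jejunum and from 11.1 to 77.9 RPM within ileum (-2.45 ± 0.76, adjusted p = 0.0431). Its call was kept in 3 of the 10 fits that left out a library. The 20 called miRNAs outside the rule for named miRNAs were looked at after their values were seen. Besides those given above they were miR-26a, miR-34a, miR-190a, miR-500a-5p, miR-502-5p and miR-744-5p, with log2 fold changes between -1.23 and 1.07. Each of their calls was kept in 2 to 6 of the 10 fits that left out a library. The other arms of miR-500a-5p and miR-502-5p, listed as miR-500 (0.49) and miR-502 (0.13), were not called.

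miRNAs often used as references were not called in any case (0 of 9 tested, beside 18.6% over all miRNAs, with a median log2 fold change of 0.24). miR-29a (-0.08 ± 0.13) and miR-186 (0.16 ± 0.17) were closest to 0, followed by miR-425 (0.24 ± 0.65), miR-140 (0.41 ± 0.22), miR-191 (0.55 ± 0.21) and miR-16 (0.57 ± 0.23, adjusted p = 0.0986). miR-425 had the widest error, with jejunum 1 (48.4 RPM) and ileum 1 (58.7 RPM) far below the next library of their segment (339 and 429 RPM). The library numbered 1 was also the lowest for miR-425 in each of the 15 tissues with 4 or more libraries, and had 0 reads of its opposite arm in 14 of them. The labels do not say whether these libraries come from 1 dog. miR-21, among the 5 most abundant in both segments, was not called (0.34 ± 0.19, adjusted p = 0.213).

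**Figure D5:**
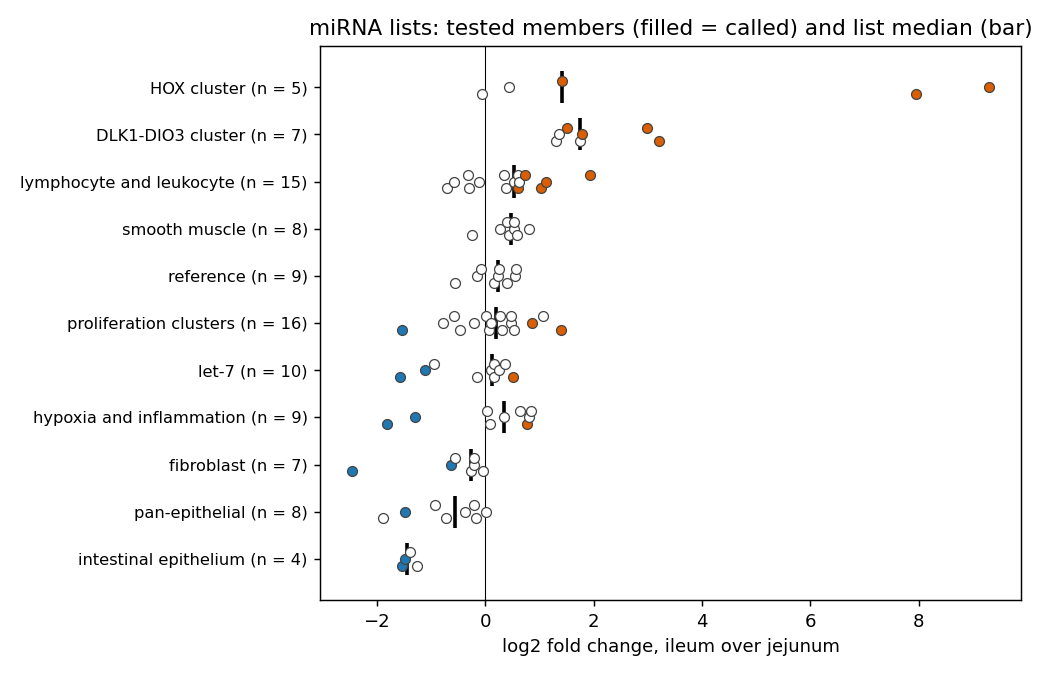
Log2 fold change (ileum over jejunum) of the tested members of 11 miRNA lists; each circle is a miRNA, filled orange or blue where called higher or lower in ileum and open where not called, and the black bar is the list median. The HOX cluster (median 1.43) and DLK1-DIO3 (1.75) lists lie to the right and the intestinal epithelium list (-1.44) to the left; the reference list has no filled circle.

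The segments on either side share no library with jejunum or ileum, so the same miRNAs were read from duodenum to colon. The methods list 5 dogs for all 16 tissues, so these are not other animals. Shared signs are therefore no replication in new dogs. Of 250 miRNAs tested there, 5 were called (2%), 4 higher in colon (1.6%) and 1 lower (0.4%), and all 5 were among the 49 with the same direction: miR-196a (7.15 ± 0.60), miR-196b (8.34 ± 0.50), miR-155 (1.81 ± 0.30), miR-222 (1.48 ± 0.27) and miR-378a-5p (-1.67 ± 0.33). Their adjusted p-values were 3.81e-05, 2.97e-06, 0.0115, 0.0148 and 0.0246. Of the 49, 42 were tested between duodenum and colon and 37 of those had the same sign (88.1%), beside 122 of 198 (61.6%) of the miRNAs not called. The 5 with the opposite sign were miR-10b (-0.83, adjusted p = 0.605), miR-181b, miR-203, miR-381 and miR-411.

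Duodenum 3 and 4 held 23479 and 5976 RPM of the intestinal epithelium list, against 88634 to 521080 RPM in the other 3. Without them, 13 of 240 miRNAs were called (5.42%), and all 13 were among the 49 with the same sign. The 8 not already called were miR-148b, miR-152, miR-215, miR-802, miR-885, miR-98, miR-126-3p and miR-4532, all lower in colon. In duodenum 1, 2 and 5, miR-885 was at 142, 94.7 and 41.0 RPM and miR-802 at 648, 619 and 55.7 RPM. Their colon medians were 2.34 and 0.232 RPM. By medians, the decline continued into colon for 17 of the 28 miRNAs lower in ileum, and the rise continued for 7 of the 21 miRNAs higher in ileum. These miRNAs were picked by their ileum values, and the same share was not counted over all miRNAs. The counts therefore carry no weight as a trend. By the same medians, miR-155 (1052 RPM in colon) and miR-150 (407 RPM) were highest in ileum.

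Against all other libraries of the atlas, 5 miRNAs were enriched in jejunum and 2 in ileum by a mean over 5 times that of all other samples, an adjusted exact rank-sum p under 0.05 and a median over 100 RPM. Without the requirement on the median the jejunum count was 9. Between the 2 segments themselves, 3 of the 5 jejunum miRNAs (miR-18a, miR-203 and miR-215) and 1 of the 2 ileum miRNAs (miR-155) were called, whereas miR-192, miR-194 and miR-142-3p were not. The paper, which discussed miR-192 as a liver marker, reported that it fell short of its tissue enrichment criteria. The enrichment compares each segment with a reference that contains the other, so it is not a test of jejunum against ileum.

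Of the 49 calls, 26 were made in each of the 10 fits that left out a library, and 12 were also made in each of the 7 other count-based fits. These 12 were miR-196a, miR-196b, miR-155 and miR-708-3p, higher in ileum, and miR-885, miR-152, miR-98, miR-24, miR-148b, miR-378a-5p, miR-8859a and let-7b, lower in ileum.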

How the data were processed

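Total RNA of homogenised tissue was sequenced by the authors from TruSeq small RNA libraries on an Illumina GAIIx. Per the study's methods, the authors clipped adaptors, aligned reads to the dog genome (CanFam3.1) with OSA without mismatches, dropped reads with many genomic matches, and counted reads over mature miRNA loci taken from dog, rat and human miRBase entries with bedtools. The deposited file lists 1 miRNA and sample per row with its read count, and a per-million value, which equals the count over the sample's total on miRNAs; absent rows were taken as 0. Reads that match several loci were retained, so near-identical members (let-7, miR-10, miR-196, miR-106a and miR-17, miR-199) may share reads. One sample name in the table matched no label and was not used, and 1 colon sample had no values. Counts were fitted here with edgeR 4.0.16 (R 4.3.3; TMM factors, filterByExpr, glmQLFit and glmQLFTest), 5 libraries a group and no covariates, with Benjamini-Hochberg adjustment and a threshold of 0.05; the standard error is the log2 fold change over the root of the F statistic. Of 650 miRNAs in the table, 542 were detected in the 10 libraries and 263 were tested. RPM values in the text are unscaled by TMM. Alternatives were DESeq2 1.42.0 and its size factors, total-read scaling, other filters, an exact rank-sum test (scipy 1.17.1), a spread shared with other tissues and leaving out libraries; leaving out ileum 4 and 5 or duodenum 3 and 4 was chosen after seeing the data. The scripts were tested on simulated data. Library pairs of a segment differed by far more than sampling noise (chi-square per degree of freedom at least 62.0), so none was taken as a duplicate. Gene neighbours come from the RefSeq gene table of assembly UU_Cfam_GSD_1.0, which named 250 of the 263 tested miRNAs; its coordinates are not used, since its build differs. miRNAs were named by this rule: the 12 largest called differences in each direction, members of the HOX, epithelial, leukocyte, myeloid, smooth muscle and reference lists with a mean of at least 100 RPM, the 5 most abundant of each segment, and the tissue enriched. The comparison, the lists and the rule were chosen with earlier results of these data known, so the lists are descriptions and carry no test.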

Additional observations from a re-analysis of the deposited data

Results flagged for a closer look

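Within groups of 4 or 5 libraries, 118 sets of values were examined for a sample far from the rest by Dixon's criterion, which chance meets in about 1 in 20 groups, and 6 met it. miR-133a was at 1271 RPM in ileum 4, beside 168 to 399 RPM in the other ileum libraries. miR-141 was at 21926 RPM in jejunum 2, beside a next highest value of 5608 RPM. miR-155 was at 4873 RPM in ileum 5, where the next highest was 2291 RPM. miR-21 was at 30603 RPM in ileum 4, the lowest of its group, and the next was 53031 RPM. miR-8908a-3p was at 8.16 RPM in ileum 3, beside a next highest value of 2.38 RPM. Ileum 1 had 6117500 reads on miRNAs, and the next deepest ileum library had 1681404.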

How the results depend on the processing

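No paired analysis was made, because the labels carry no dog or replicate number. The number called between jejunum and ileum, 49 as reported, was 43 with DESeq2 size factors, 42 with total reads as library size, 51 with no filter, 40 with a mean of at least 10 RPM and 69 with the DESeq2 test. It was 20 with the spread shared over the 4 intestinal tissues and 21 with all tissues. Among others, miR-10b, miR-150, miR-18a and miR-200c lost their calls in both. miR-802, miR-411, miR-381 and miR-204 lost theirs with the 4 intestinal tissues only. The exact rank-sum test called 0 after adjustment and 60 at an unadjusted p under 0.05; its smallest p for 5 against 5 is 0.00794. Leaving out 1 library gave 28 to 65, with 28 without ileum 1 and 31 without jejunum 1. Between duodenum and colon, 5 as reported, the count was 2 with total reads as library size, 33 with the DESeq2 test, 13 without duodenum 3 and 4, and 2 to 20 with 1 library left out (20 without duodenum 2). The tissue enriched miRNAs were 5 for jejunum and 9 with no filter on the median, and 2 for ileum and 9 with the other intestinal tissues left out of the reference. The ileum minus jejunum difference of library summaries ranged, with 1 library left out, from -585991 to 811817 in total reads, from -0.10 to 10.3 in miRNAs detected and from -3.10 to -0.30 percentage points in the share of the 10 most abundant miRNAs. No called log2 fold change changed sign under any setting; of the 76 miRNAs followed, 9 that were not called did in at least 1. With total reads as library size and in the rank-sum test, in that order, miR-10a became 0.085 and 0.085, miR-29a 0.102 and 0.103, miR-429 0.042 and 0.041, and miR-28-5p 0.064 and 0.064. Without ileum 4 and 5, miR-145 became -1.01, miR-133a -0.66, miR-425 -0.11, miR-429 0.30 and miR-200b-3p 0.24. With 1 library left out, miR-10a ranged from -0.144 to 0.106, miR-133a from -0.599 to 0.750, miR-145 from -0.590 to 0.863, miR-342 from -0.466 to 0.00041, miR-425 from -0.090 to 0.590, miR-429 from -0.400 to 0.038 and miR-28-5p from -0.167 to 0.021. Of the calls, 12 lost their call with total reads as library size and 12 without ileum 4 and 5. The depth of jejunum 1 and ileum 5 limits what can be said below about 6 RPM.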
